A study of Mus musculus with 11 samples.

Results

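Genes for voltage-gated ion channels and for potassium channels were selected from an expression table by their symbols: the Kcn families of potassium channel subunits, the Scn sodium channel subunits, the Cacn calcium channel subunits and the Hcn channels. Of 37991 rows, 138 matched, which carried 135 different symbols because Scn8a, Kcnh8 and Kcnb2 are each listed on 2 rows. A row was tested when at least 2 of the 11 libraries reached 1 CPM (the reads of a gene scaled to a common library total). This left 73 rows with 72 symbols, and the other 65 rows are described at the end. Scn2a1 and Kcne1l lie outside the symbol pattern, and Scn2a1 was counted with the partner genes below.

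The RNA came from primary neural stem cells of the C57BL/6J mouse strain, taken from the frontal cortex at E14.5, with no genetic change named in the labels. Cells of the NSC group (3 libraries) were collected on day 0 from a NeuroCult proliferation medium. The other cultures were collected on day 4 after a change of medium. Astrocyte medium was DMEM that held 1% FBS (fetal bovine serum) and 1% N-2 (3 libraries), Neuron medium was Neurobasal with 2% B-27 supplement (3 libraries), and Oligodendrocyte medium was the Neuron medium with added T3 (triiodothyronine, a thyroid hormone) at 30 ng/mL (2 libraries). All 3 of these media also held GlutaMAX. The group names stand for the medium and not for a sorted cell type. In each comparison with NSC the medium and the time in culture cannot be told apart. The labels do not say whether replicates were separate cultures or embryos, so the p-values measure the spread between libraries, which may be technical.

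Voltage-gated channels are membrane pores that open or close with the voltage across the membrane. Potassium channels let potassium leave the cell and set the resting potential, sodium channels carry the upstroke of the action potential, calcium channels couple voltage to calcium entry, and HCN channels open on hyperpolarization. The pore-forming subunits work with auxiliary subunits that change gating or transport to the membrane. In the brain, neurons use these channels for firing, astrocytes use inward rectifiers and leak channels to take up and pass on potassium, and cells of the oligodendrocyte lineage carry several potassium channels before and during myelination.

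The regions upstream of 4 genes are shown because these genes were higher in 1 medium than in every other group in the results that follow. They were chosen after their values were seen, from genes with an entry in the promoter table, and Kcna1, with a larger difference than these in Oligodendrocyte vs Neuron, has no entry. Hcn2, Kcnj4 and Kcnj12 were high in Oligodendrocyte cultures, and Kcns1 was high in Astrocyte cultures. Each sequence is the 250 bases before the annotated start, read 5′ to 3′ on the strand of the gene, from RefSeq on build GRCm38.p6, whose coordinates differ from those of the expression table. Capitals mark AGGTCA, the core motif of nuclear hormone receptors such as the T3 receptors, and GGGCGG, the GC box, on either strand.
Hcn2 (chr10:79716384-79716633, plus strand): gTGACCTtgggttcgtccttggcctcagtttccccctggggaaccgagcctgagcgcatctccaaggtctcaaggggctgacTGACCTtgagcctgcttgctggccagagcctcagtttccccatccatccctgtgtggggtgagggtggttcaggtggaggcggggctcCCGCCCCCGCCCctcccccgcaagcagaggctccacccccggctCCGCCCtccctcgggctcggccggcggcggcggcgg
Kcnj4 (chr15:79505242-79505491, minus strand): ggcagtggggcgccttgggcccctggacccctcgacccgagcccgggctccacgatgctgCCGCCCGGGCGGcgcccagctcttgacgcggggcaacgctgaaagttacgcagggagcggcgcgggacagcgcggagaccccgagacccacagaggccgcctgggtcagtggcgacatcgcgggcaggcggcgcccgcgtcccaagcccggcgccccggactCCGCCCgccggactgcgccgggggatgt
Kcnj12 (chr11:61065554-61065803, plus strand): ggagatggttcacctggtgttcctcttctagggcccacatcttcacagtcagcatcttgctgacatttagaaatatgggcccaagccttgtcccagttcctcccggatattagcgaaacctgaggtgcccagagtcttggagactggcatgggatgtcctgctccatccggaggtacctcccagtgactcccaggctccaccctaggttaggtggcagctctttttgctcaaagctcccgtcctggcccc
Kcns1 (chr2:164171114-164171363, minus strand): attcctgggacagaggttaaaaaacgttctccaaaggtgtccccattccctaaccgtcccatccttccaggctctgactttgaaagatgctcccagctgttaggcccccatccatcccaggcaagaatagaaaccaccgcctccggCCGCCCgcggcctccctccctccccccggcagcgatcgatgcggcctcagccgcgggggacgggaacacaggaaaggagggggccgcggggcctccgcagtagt
The Hcn2 region held 2 AGGTCA motifs, both as the reverse complement TGACCT, and 3 GC boxes, all as CCGCCC. The Kcnj4 region held 3 GC boxes, of which 2 adjoin each other in opposite orientation, the Kcns1 region held 1, and the Kcnj12 region held neither motif. The base composition differed as well, with 77.2% G or C in the Kcnj4 region, 70.4% in Hcn2, 63.2% in Kcns1 and 56% in Kcnj12. Of the 72 tested symbols, 52 had at least 1 promoter in the RefSeq table (82 promoters). AGGTCA occurred in 6 of those 82 promoters (7.32%), compared with 14% of all 32851 promoters of the same length. GGGCGG occurred in 46.3% of the channel gene promoters and in 32.7% of all promoters, and the median share of G or C was 59.4% and 52.4%. The direct repeat of AGGTCA with a spacer of 4 bases (DR4) occurred in 0 of the 82 promoters and in 0.0152% of all promoters. Among the 13 channel genes at least 2-fold higher in Oligodendrocyte than in Neuron, 9 had promoters (11 in all), and Hcn2 alone held an AGGTCA. A match is a description of letters in the window and does not show that a factor binds there.

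Read steps in the low values put 1 read at 0.0151 to 0.0203 CPM, which corresponds to 49280000 to 66160000 reads per library. Libraries correlated at r = 0.990 to 0.999 within groups and at 0.816 to 0.961 between groups, over genes. The libraries NSC replicate 3 and Neuron replicate 2 stood apart in this gene group. NSC replicate 3 had the lowest value of its group in 35 of the 73 channel genes (47.9%), compared with 27.6% of all tested genes. Neuron replicate 2 was lowest in 47 of the 73 (64.4%), while this was so for 49.4% of all tested genes, and mitochondrial genes took 8.91% of the CPM scale of this library, compared with 6.82% to 6.91% in the other Neuron libraries. Summed oligodendrocyte markers lay between 70 and 78.5 CPM in NSC, 424 and 543 in Astrocyte, 2631 and 2803 in Neuron, and 2527 and 2893 in Oligodendrocyte libraries, so the cultures in both Neurobasal media overlapped. Summed astrocyte markers lay between 1794 and 1886 CPM in NSC, 15409 and 17079 in Astrocyte, 11507 and 12610 in Neuron, and 5320 and 6075 in Oligodendrocyte libraries. Gfap alone averaged 7631 CPM in Astrocyte and 2647 in Neuron, and most other markers of this list went the other way. By the fit described below, 3 of the 9 were higher and 6 lower in Astrocyte than in Neuron, with a median log2 difference of -0.33. Among all tested genes, 40.3% were called higher and 22% lower. Neuron markers summed to at most 88.5 CPM in NSC and to 162 to 248 CPM across the day 4 libraries, where the sums of the media overlapped. Single genes of this list differed. Of 6 tested, 4 were higher and 2 lower than NSC in Astrocyte and in Oligodendrocyte, and 5 and 1 in Neuron. Against Neuron, 1 was higher and 3 lower in Astrocyte, and 2 and 3 in Oligodendrocyte. Dcx averaged 1.6, 125, 148 and 86.6 CPM in NSC, Astrocyte, Neuron and Oligodendrocyte, and Gap43 71, 13.4, 21.6 and 26.4 CPM. Markers of oligodendrocyte precursors summed to 1790 to 1921 CPM in NSC, 707 to 794 in Astrocyte, 1603 to 2161 in Neuron and 1335 to 1458 in Oligodendrocyte libraries. These sums hide a split by gene, since 3 of the 6 markers were called higher and 3 lower than NSC in each medium. Pericyte and smooth muscle markers summed to 129 to 141 CPM in Astrocyte and to 52 to 98.5 CPM in the other libraries. Microglia markers summed to at most 3.16 CPM and endothelial markers to at most 7.42 CPM in any library. In bulk RNA, fewer cells of a type and less RNA per cell cannot be told apart, and the part of cell composition in the channel gene differences was not tested.

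Most channel genes differed from NSC in each medium, as most genes did. Calls rest on a limma fit to log2(CPM + 1) of all libraries, at a Benjamini-Hochberg adjusted p under 0.05 over the 13342 tested genes. In Astrocyte vs NSC 67 of the 73 channel genes were called (39 higher, 28 lower), a share of 91.8%, and 83.6% of all tested genes were called (48% higher, 35.6% lower). In Neuron vs NSC 66 were called (35 higher, 31 lower), and the background, the share of all tested genes called, was 83.1% (43.5% higher, 39.6% lower). In Oligodendrocyte vs NSC 70 were called (46 higher, 24 lower), and the background was 80.2% (48.1% higher, 32.2% lower). Quantile normalization moved these splits to 29 higher and 31 lower in Astrocyte, 27 and 34 in Neuron, and 32 and 26 in Oligodendrocyte, so the majority turned in the first and second of these comparisons. The higher share of calls in Oligodendrocyte vs NSC went from 65.7% to 55.2%.

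Between the day 4 media the calls of channel genes were again near or moderately above the background. Astrocyte vs Neuron gave 47 calls (32 higher, 15 lower; background 62.2%, with 40.3% higher and 22% lower). Oligodendrocyte vs Neuron gave 54 calls (41 higher, 13 lower; background 67.5%, with 43.9% higher and 23.6% lower), with 75.9% of calls higher, or 65.4% under quantile normalization. Oligodendrocyte vs Astrocyte gave 44 calls (28 higher, 16 lower; background 52.2%, with 28.7% higher and 23.5% lower).

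At 2-fold or more (a log2 difference of at least 1 on this scale) 36 channel genes were called in Astrocyte vs NSC (24 higher, 12 lower), or 49.3%, and 33.7% of all genes were (21.4% higher, 12.3% lower). The counts were 38 in Neuron vs NSC (18 higher, 20 lower; background 31.8%, with 17.9% higher and 13.8% lower) and 39 in Oligodendrocyte vs NSC (27 higher, 12 lower; background 32%, with 21.2% higher and 10.7% lower). Between media they were 12 in Astrocyte vs Neuron (9 higher, 3 lower; background 9.34%, with 6.39% higher and 2.95% lower), 20 in Oligodendrocyte vs Neuron (13 higher, 7 lower; background 12.5%, with 8.96% higher and 3.58% lower) and 10 in Oligodendrocyte vs Astrocyte (8 higher, 2 lower; background 7.94%, with 4.53% higher and 3.41% lower). The counts depend on the pseudocount. With 5 in place of 1, 16 channel genes (21.9%) were called at 2-fold or more in Astrocyte vs NSC and 15 (20.5%) in Neuron vs NSC, and these shares no longer exceeded those of all tested genes (22.5% and 20.9%). With that pseudocount the shares of channel genes and of all tested genes were 31.5% and 21.1% in Oligodendrocyte vs NSC, 16.4% and 6.78% in Oligodendrocyte vs Neuron, 8.22% and 4.48% in Astrocyte vs Neuron, and 8.22% and 4.46% in Oligodendrocyte vs Astrocyte. Values of the compared groups were fully separate in 70 channel genes for Astrocyte and NSC (86.2% of all genes), 66 for Neuron and NSC (83.2%), 71 for Oligodendrocyte and NSC (89.3%), 46 for Astrocyte and Neuron (63%) and 54 for Oligodendrocyte and Astrocyte (71.7%). The split between higher and lower moved with the scaling. The higher share was 66.7% in Astrocyte vs NSC, but 52.6% after median-of-ratios scaling and 40.5% after quantile normalization. It moved from 69.2% to 61% and 51.4% in Oligodendrocyte vs NSC, from 47.4% to 41.7% and 37.1% in Neuron vs NSC, and from 75% to 64.3% and 57.1% in Astrocyte vs Neuron. The median log2 difference of all tested genes was 0.15, 0.06 and 0.19 for the 3 media against NSC, and it was between -0.04 and 0.00 under both other scalings. The median of the 73 channel genes was 0.48, 0.09 and 0.64 in the same comparisons, 0.37, 0.06 and 0.43 after median-of-ratios scaling, and 0.06, -0.10 and 0.18 after quantile normalization.

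**Figure D1:**
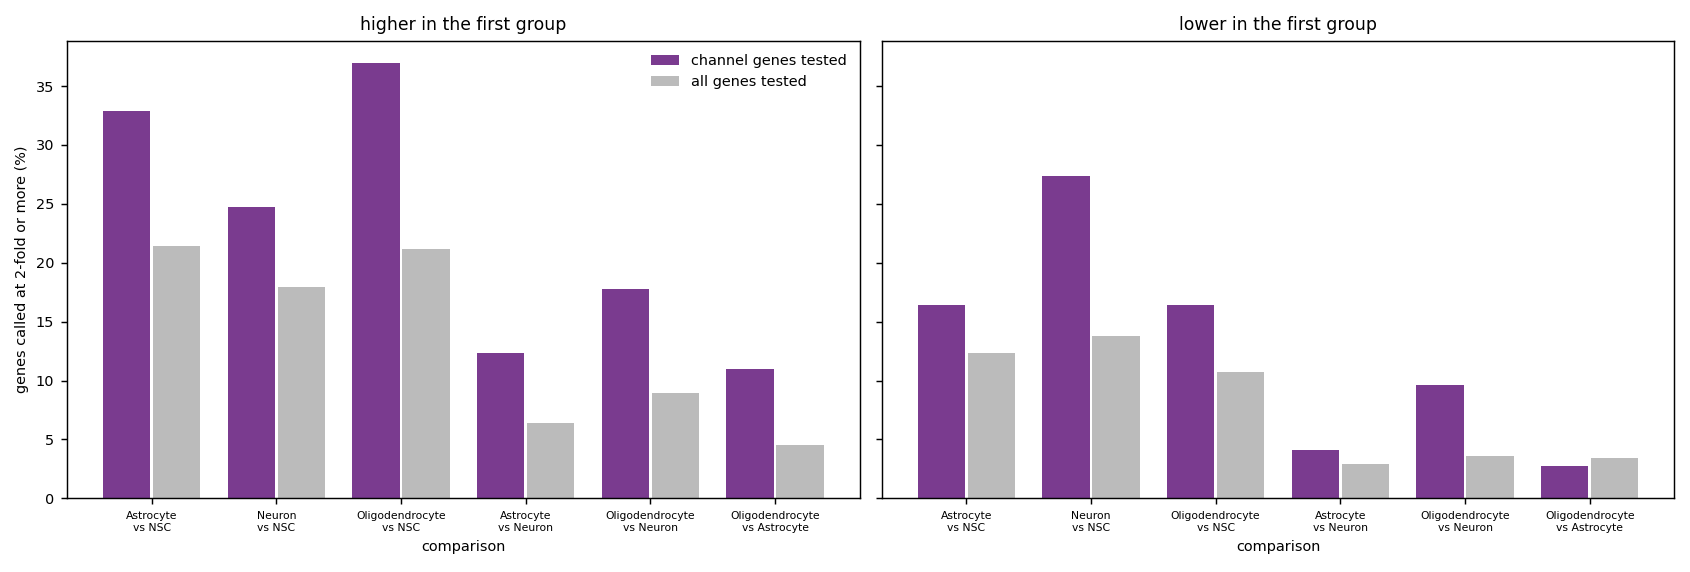
Share of genes (%) called at 2-fold or more, higher (left) and lower (right) in the first group of each of the 6 comparisons, for the 73 tested channel genes (purple) and all 13342 tested genes (grey). The channel gene bar is taller in each pair except for genes lower in Oligodendrocyte than in Astrocyte.

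Of the channel genes, 28 rose in all 3 media (38.4%, compared with 34.4% of all tested genes) and 21 fell in all 3 (28.8% and 25.9%), shares near the background. Another 10 rose in at least 1 medium and fell in another (13.7%, and 7.78% of all tested genes). Because the 3 comparisons use the same NSC libraries, these counts are not independent of each other. Under quantile normalization Scn1a, Kcnab1 and Cacna2d3 among the 28, and Kcna1 and Cacna1b among the 10, were among those that changed sign in at least 1 comparison. The 13 genes higher by at least 2-fold in all 3 media (17.8%, and 11.8% of all tested genes) included Cacnb4, Cacng7, Kcna6, Kcnd1, Kcnip2, Kcnj10, Kcnk2, Kcnn1, Kcnn2, Kcnt1, Scn3a and Scn3b. The 6 genes lower by at least 2-fold in all 3 (8.22%, and 7.65% of all tested genes) were Kcnc1, Kcng1, Kcnk5, Kcnmb4, Kcnq5 and Kcnv1. Against each of the 3 other groups, 6 genes were at least 2-fold higher in Oligodendrocyte (Cacna1d, Cacna2d2, Hcn2, Kcna1, Kcnj12 and Kcnj4), 2 in Astrocyte (Kcnj3 and Kcns1) and 1 in Neuron (Kcnk2). The matching shares of all tested genes were not computed, so whether these counts are particular to channel genes was not tested.

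**Figure D2:**
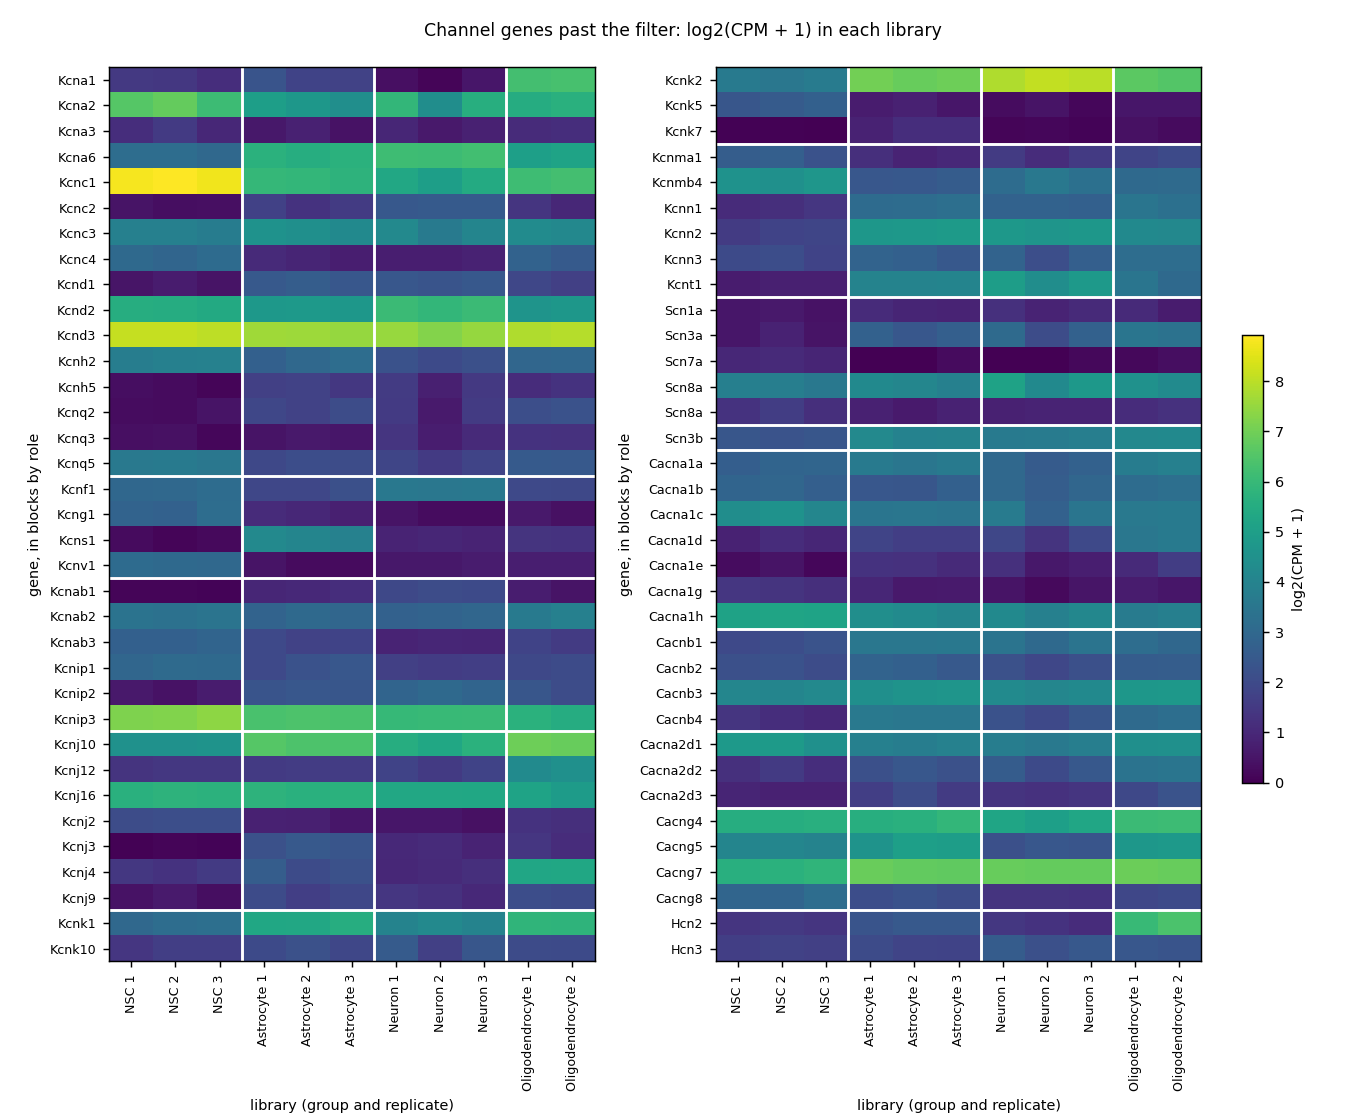
Level of 70 of the 73 tested channel genes as log2(CPM + 1) (colour) in the 11 libraries (columns), with genes in blocks by role and white lines between roles and between groups. Libraries of a group resemble each other, and Kcnc1 and Kcnv1 are brightest in NSC while Kcna1 and Hcn2 are bright in the 2 Oligodendrocyte libraries.

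Among the 18 tested rows for pore-forming alpha subunits of Kv channels, the tetrameric voltage-gated potassium channels, 8 were higher and 9 lower in Astrocyte vs NSC, 8 and 9 in Neuron vs NSC, and 10 and 7 in Oligodendrocyte vs NSC. Kcna1 encodes a low-threshold delayed rectifier that sits beside the nodes of myelinated axons. It was at 1.81, 1.73 and 1.25 CPM in NSC, 3.97, 2.48 and 2.41 in Astrocyte, 0.28, 0.09 and 0.46 in Neuron, and 74.68 and 79.78 in Oligodendrocyte libraries. No 2 groups overlapped, and both Oligodendrocyte libraries lay far above the rest. The mean in Oligodendrocyte was 77.2 ± 3.61 CPM (SD, n = 2), 279-fold that in Neuron (0.277 ± 0.185, n = 3) and 26.1-fold that in Astrocyte. The ratio to Neuron rests on Neuron values of only 0.09 to 0.46 CPM, so its size is uncertain. The log2 difference between Oligodendrocyte and Neuron was 5.95 ± 0.17 (SE, adjusted p = 1.83e-11), which the added 1 in the scale makes smaller than the ratio of means. Kcna1 was lower in Neuron than in NSC by 1.03 on the log2 scale (a difference of -1.03). It was higher in Astrocyte than in NSC by 0.59 (adjusted p = 0.00237), but quantile normalization turned this to -0.09.

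Kcna6, a related Kv alpha subunit whose gene lies near Kcna1, had another order. It was at 8.09, 8.04 and 7.14 CPM in NSC, 50.67, 46.34 and 50.69 in Astrocyte, 69.77, 68.62 and 73.08 in Neuron, and 31.73 and 34.93 in Oligodendrocyte libraries. The groups did not overlap, with NSC lowest and Neuron highest. Kcna6 was 9.09-fold higher in Neuron than in NSC (log2 difference 3.03 ± 0.07 SE, adjusted p = 1.3e-13) and was below its Neuron level in Oligodendrocyte (-1.06 ± 0.08, adjusted p = 7.2e-08).

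In the mm9 coordinates of the table Kcna1 lies on chromosome 6 from 126586481 to 126595819 and Kcna6 from 126658347 to 126690680, both on the minus strand and 62.5 kb apart. Kcna5, a further Kv alpha gene, lies 100.9 kb from Kcna1 on its other side and stayed under 1 CPM, with values from 0.04 to 0.68. Gm17456 overlaps Kcna6 on the other strand and reached at most 0.14 CPM. Ndufa9, a mitochondrial complex I gene on the far side of Kcna6, had means of 82.6, 75.1, 52.5 and 93.1 CPM in NSC, Astrocyte, Neuron and Oligodendrocyte. Its difference between Oligodendrocyte and Neuron was 0.82 (adjusted p = 3.15e-06), against 5.95 for Kcna1 and -1.06 for Kcna6.

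**Figure D3:**
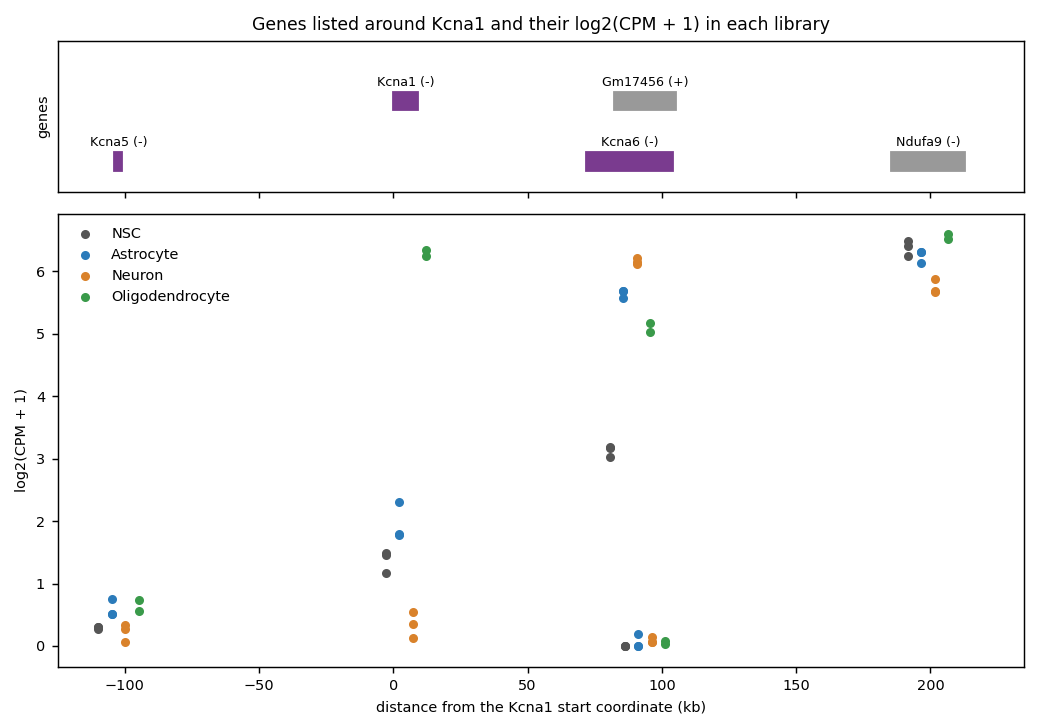
Genes listed within 200 kb of Kcna1 (top, kb from the Kcna1 start coordinate, strand in brackets) and their log2(CPM + 1) in each library (bottom; points coloured by group and shifted sideways by group for legibility). Kcna1 is highest in Oligodendrocyte and lowest in Neuron, whereas Kcna6 is highest in Neuron and lowest in NSC.

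Kcnc1 encodes a fast delayed rectifier of the Kv3 family and fell in every medium. It was at 445.14, 481.08 and 422.35 CPM in NSC, 60.61, 58.59 and 52.94 in Astrocyte, 39.69, 30.57 and 42.22 in Neuron, and 70.5 and 75.75 in Oligodendrocyte libraries. All NSC libraries lay above all day 4 libraries. The mean was 12-fold lower in Neuron than in NSC (a log2 difference of -3.56 ± 0.10 SE, adjusted p = 1.03e-12) and differed by -2.95 in Astrocyte and -2.60 in Oligodendrocyte. Kcnc4, of the same family, was at 7.34, 6.47 and 7.62 CPM in NSC, 1.08, 0.91 and 0.69 in Astrocyte, 0.69, 0.66 and 0.81 in Neuron, and 5.9 and 4.73 in Oligodendrocyte libraries. It was 7.38-fold higher in Oligodendrocyte than in Neuron (log2 difference 1.87 ± 0.12 SE, adjusted p = 1.64e-08); the Oligodendrocyte libraries lay between NSC and the other media. Its smaller difference between Oligodendrocyte and NSC (-0.37) was no longer called without Oligodendrocyte replicate 2.

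The Kv4 alpha subunits Kcnd2 and Kcnd3 carry the transient A-type current. Kcnd2 was at 45.89, 44.99 and 41.43 CPM in NSC, 25.71, 26.41 and 25.27 in Astrocyte, 66.97, 58.48 and 66.89 in Neuron, and 23.26 and 25.31 in Oligodendrocyte libraries. Neuron libraries were above and the other day 4 libraries below NSC, without overlap. The log2 difference from NSC was 0.53 in Neuron, -0.75 in Astrocyte and -0.83 in Oligodendrocyte, and that between Oligodendrocyte and Neuron was -1.36 ± 0.08 (SE, adjusted p = 7.16e-09). Kcnd3 ranged from 256.58 to 278.76 CPM in NSC and from 152.96 to 242.04 CPM in the day 4 libraries. It differed from NSC by -0.50 in Astrocyte, -0.65 in Neuron and -0.20 in Oligodendrocyte, the last with an adjusted p of 0.0436 that was lost under 8 of the alternatives.

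Other Kv alpha genes are named here after their values had been seen. Kcnc2, another Kv3 subunit, was at 4.44, 4.75 and 4.74 CPM in Neuron, above every library of the other groups (0.26 to 2.34 CPM). Kcna2, a partner of the Kcna1 product in axons, varied widely within groups, with 58.59, 19.77 and 46.58 CPM in Neuron, where replicate 2 was the low value. It was lower in Neuron than in NSC (-1.22 ± 0.30 SE, adjusted p = 0.00201), and its difference between Oligodendrocyte and Neuron (0.32 ± 0.34) was not called.

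The silent Kv subunits form no channel alone and modify channels of the Kv2 family. Of the 4 tested, 3 were lower in Astrocyte and in Oligodendrocyte than in NSC, and 2 were lower in Neuron. Kcns1 was at 0.2, 0.1 and 0.17 CPM in NSC, 17.39, 15.46 and 14.26 in Astrocyte, 0.83, 0.92 and 0.85 in Neuron, and 1.51 and 1.45 in Oligodendrocyte libraries. The Astrocyte libraries lay far above all others. The Astrocyte mean of 15.7 ± 1.58 CPM (SD, n = 3) was 100.2-fold that in NSC, 18.1-fold that in Neuron and 10.6-fold that in Oligodendrocyte. The log2 difference between Astrocyte and Neuron was 3.16 ± 0.09 (SE, adjusted p = 2.56e-11), which the added 1 in the scale makes smaller than the ratio of means.

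Kcnf1, Kcng1 and Kcnv1 did not follow Kcns1. Kcnf1 was at 6.87, 7.13 and 7.8 CPM in NSC, 2.71, 2.75 and 3.53 in Astrocyte, 10.98, 10.59 and 10.97 in Neuron, and 2.94 and 2.79 in Oligodendrocyte libraries. As for Kcnd2, the Neuron libraries were above NSC and the other day 4 libraries below, with a difference of -1.62 ± 0.10 between Oligodendrocyte and Neuron (SE, adjusted p = 1.7e-08). Kcnv1 ranged from 7.09 to 7.63 CPM in NSC and from 0.19 to 0.68 CPM in the day 4 libraries, which made it 27.9-fold lower in Astrocyte than in NSC (-2.73 on the log2 scale). Kcng1 ranged from 5.89 to 8.14 CPM in NSC and from 0.23 to 1.13 CPM at day 4, and was 24.1-fold lower in Neuron than in NSC (-2.59).

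**Figure D4:**
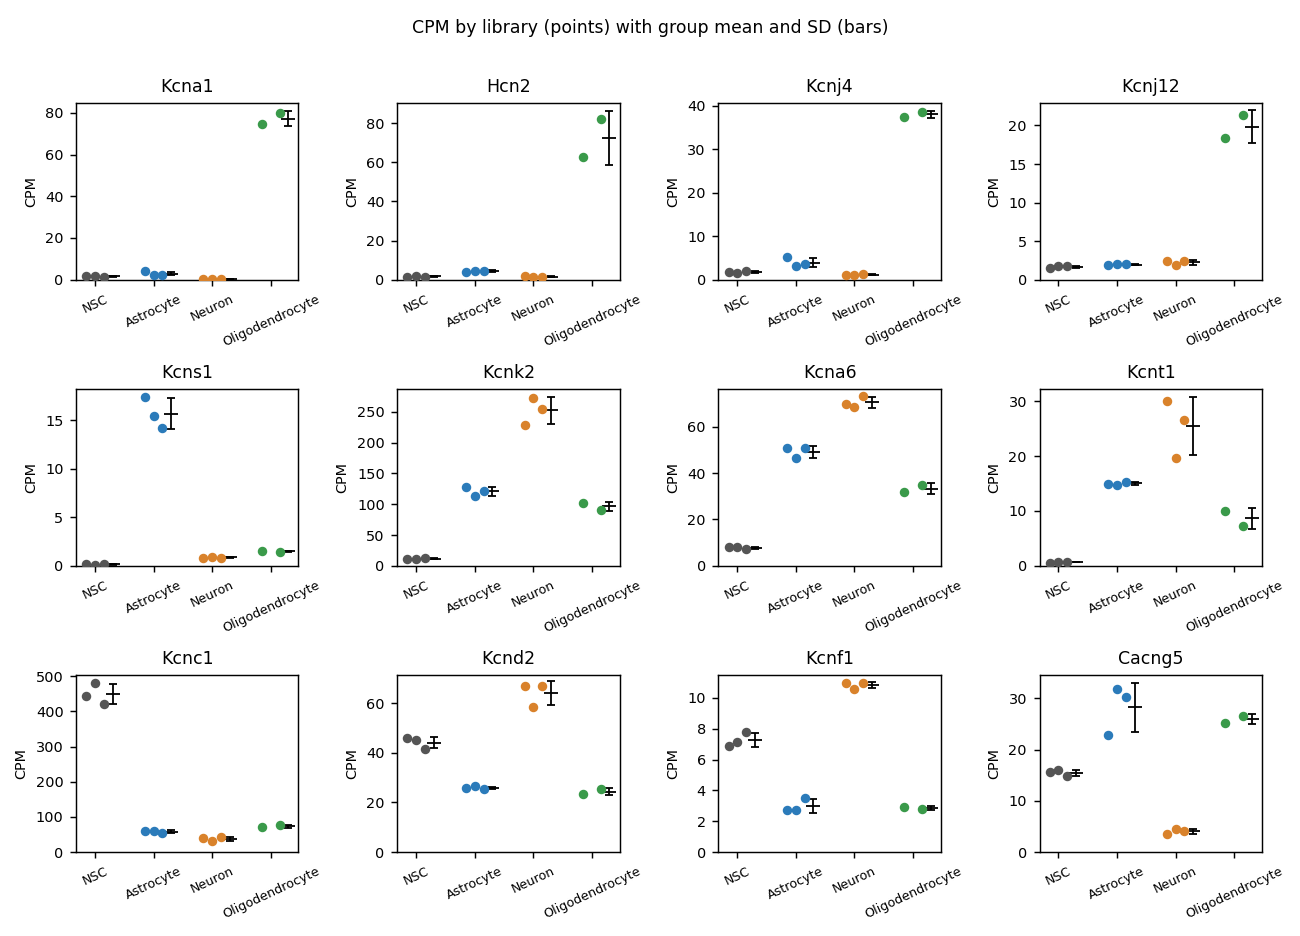
CPM of 12 channel genes in each library (points) with the group mean and SD (black bars; n = 3, or 2 for Oligodendrocyte), each panel with its own axis from 0. Kcna1, Hcn2, Kcnj4 and Kcnj12 stand out in Oligodendrocyte, Kcns1 in Astrocyte, and Kcnk2, Kcna6, Kcnd2 and Kcnf1 are highest in Neuron.

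Of the 6 tested auxiliary subunits of Kv channels, the beta subunits (Kcnab) and the calcium-binding KChIPs (Kcnip), 2 were higher and 4 lower in Astrocyte and in Neuron than in NSC, and 3 and 3 in Oligodendrocyte. Kcnip3, also known as DREAM or calsenilin, was at 145.78, 147.06 and 167.7 CPM in NSC, 80.6 to 84.33 in Astrocyte, 62.44 to 64.55 in Neuron, and 50.94 and 45.05 in Oligodendrocyte libraries. The groups did not overlap, and the difference between Oligodendrocyte and NSC was -1.66 ± 0.075 (SE, adjusted p = 1.3e-10). Kcnab2 ranged from 8.92 to 9.72 CPM in NSC, from 5.84 to 7.22 in Astrocyte and Neuron, and was at 11.5 and 13.77 in Oligodendrocyte libraries. It was thus lower than NSC in Astrocyte (-0.43) and Neuron (-0.53) and higher in Oligodendrocyte (0.39), though the last call was lost under both other scalings and without Oligodendrocyte replicate 2. Nphp4, which overlaps Kcnab2 on the opposite strand, averaged 7.59 CPM, and whether the counting used strand is not given in the sources used here.

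Inward rectifiers (Kcnj) pass potassium near the resting potential. Of 7 tested, 5 were higher and 2 lower in Oligodendrocyte than in NSC, 4 and 1 in Astrocyte, and 4 and 3 in Neuron. Against Neuron, Oligodendrocyte cultures had 6 of the 7 higher, with a median difference of 0.83 where all genes had 0.15. Of all tested genes, 43.9% were called higher in this comparison. The call of Kcnj3, one of the 6 (0.28, adjusted p = 0.0464), was lost under 14 alternatives, which included both other scalings, and the adjusted p was 0.0905 with the replicate block. Kcnj4, a strong inward rectifier of the Kir2 family, was at 1.69, 1.5 and 1.89 CPM in NSC, 5.15, 3.11 and 3.58 in Astrocyte, 0.99, 1.09 and 1.3 in Neuron, and 37.38 and 38.56 in Oligodendrocyte libraries. The groups did not overlap. The Oligodendrocyte mean was 33.7-fold that in Neuron (4.20 ± 0.14 on the log2 scale, SE, adjusted p = 8.45e-11), and its fall in Neuron against NSC (-0.34, adjusted p = 0.025) was lost under 5 alternatives. Kcnj12, of the same family, was at 1.54, 1.71 and 1.74 CPM in NSC, 1.89, 2.03 and 1.97 in Astrocyte, 2.48, 1.84 and 2.44 in Neuron, and 18.35 and 21.33 in Oligodendrocyte libraries. Both Oligodendrocyte libraries were above all others, 8.81-fold the Neuron mean (2.68 ± 0.11, adjusted p = 3.1e-10). Its difference between Neuron and NSC (0.28) changed sign under quantile normalization (-0.17). Kcnj2, the third tested Kir2 gene, instead fell in every medium (-1.40, -1.62 and -0.86 in Astrocyte, Neuron and Oligodendrocyte).

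Kcnj10 encodes Kir4.1, the main glial inward rectifier, and Kcnj16 encodes a subunit that assembles with it. Kcnj10 was at 21.51, 21.74 and 22.66 CPM in NSC, 94.19, 85.35 and 82.65 in Astrocyte, 45.76, 39 and 51.25 in Neuron, and 122.32 and 113.18 in Oligodendrocyte libraries. All day 4 libraries were above NSC and the groups did not overlap, with a difference of 1.37 ± 0.10 between Oligodendrocyte and Neuron (SE, adjusted p = 5.93e-08). Kcnj16 was nearly level in Astrocyte and NSC (48.96 to 53.93 and 49.71 to 52.71 CPM; difference -0.01 ± 0.07). It was lower than NSC in Neuron (-0.38) and Oligodendrocyte (-0.68), the opposite direction to Kcnj10. Kcnj3, a G-protein-gated channel named here after its values had been seen, was at 3.58, 4.58 and 4.12 CPM in Astrocyte, 0.85 to 1.13 in Neuron, 1.68 and 1.2 in Oligodendrocyte, and at most 0.09 in NSC libraries.

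The tandem-pore potassium channels (Kcnk) carry background or leak current. Of 5 tested, 4 were higher and 1 lower in Astrocyte than in NSC, 3 and 1 in Neuron, and 3 and 1 in Oligodendrocyte. Kcnk2 encodes TREK-1, a channel gated by stretch and lipids. It was at 11.65, 10.65 and 12.06 CPM in NSC, 127.22, 113.53 and 121.22 in Astrocyte, 228.84, 272.66 and 254.46 in Neuron, and 101.59 and 91.21 in Oligodendrocyte libraries. The groups did not overlap. The Neuron mean was 22-fold that in NSC (4.34 ± 0.08, SE, adjusted p = 1.84e-14), and the difference between Oligodendrocyte and Neuron was -1.38 ± 0.09 (adjusted p = 1.66e-08). Kcnk1, which encodes TWIK-1, had the opposite preference, at 7.02, 8.17 and 8.48 CPM in NSC, 38.93, 39.59 and 46.45 in Astrocyte, 14.94, 17.39 and 14.78 in Neuron, and 55.5 and 55 in Oligodendrocyte libraries. It was 3.52-fold higher in Oligodendrocyte than in Neuron (1.76 ± 0.10, SE, adjusted p = 8.04e-09). Kcnk5, the acid-sensitive channel TASK-2, fell from 4.24 to 5.61 CPM in NSC to at most 0.77 CPM in day 4 libraries.

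Among channels opened by calcium or sodium inside the cell, 4 of 6 were higher and 2 lower than NSC in each medium. The higher ones were the 3 small-conductance SK genes Kcnn1, Kcnn2 and Kcnn3 and the sodium-activated channel gene Kcnt1, but 2 calls of Kcnn3 were lost under quantile normalization (Astrocyte 0.71 to 0.14, Neuron 0.59 to 0.22). The lower ones were the large-conductance BK alpha subunit Kcnma1 and its partner Kcnmb4. Kcnt1 was at 0.61, 0.73 and 0.74 CPM in NSC, 14.97, 14.77 and 15.34 in Astrocyte, 30.05, 19.64 and 26.64 in Neuron, and 9.95 and 7.31 in Oligodendrocyte libraries. The groups did not overlap, and the Neuron mean was 36.7-fold that in NSC (3.95 ± 0.14, SE, adjusted p = 6.16e-12). Between Oligodendrocyte and Neuron, Kcnt1 differed by -1.45 ± 0.15 (adjusted p = 2.06e-06). Kcnn2 ranged from 1.91 to 2.63 CPM in NSC and from 17.02 to 28.02 CPM in the day 4 libraries, 11.3-fold higher in Astrocyte (3.05 on the log2 scale). Kcnmb4 was at 22.59, 21.42 and 24.84 CPM in NSC, 4.31 to 5.1 in Astrocyte, 7.85 to 10.78 in Neuron, and 7.34 and 7.4 in Oligodendrocyte libraries, and differed from NSC by -2.09 ± 0.10 in Astrocyte (SE, adjusted p = 2.8e-10).

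Of the sodium channel alpha subunits, 5 rows were tested. Scn3a encodes Nav1.3, the main embryonic form. It was at 0.44, 0.8 and 0.39 CPM in NSC, 5.76, 4.37 and 5.52 in Astrocyte, 7.45, 3.17 and 5.86 in Neuron, and 9.91 and 9.21 in Oligodendrocyte libraries. Every day 4 library was above every NSC library, and the differences from NSC were 2.01, 2.02 and 2.78 (SE 0.20 to 0.23). Scn8a, which encodes Nav1.6 of mature nodes, has 2 rows that lie beside each other on chromosome 15. The row with more reads ranged from 10.97 to 13.44 CPM in NSC and was at 34.44, 17.9 and 26.19 in Neuron libraries, 0.97 higher on the log2 scale (adjusted p = 0.000182). The other row reached at most 2.06 CPM and was lower than NSC in Neuron by a difference of -0.50. The 2 rows thus moved in opposite directions, and a total for the gene was not formed.

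Scn1a and Scn7a lay just inside the filter, with second highest libraries of 1.15 and 1.01 CPM, and Kcnu1 just outside it, with 0.88 CPM. Scn7a, a sodium-level sensor, was at 1.01, 1.1 and 0.89 CPM in NSC and at most 0.25 CPM in the day 4 libraries. Scn1a (Nav1.1) was higher than NSC by 0.45 in Astrocyte, 0.55 in Neuron and 0.36 in Oligodendrocyte, but under quantile normalization these differences were -0.22, 0.04 and -0.28. There the Astrocyte and Neuron calls were lost, and Scn1a was called lower in Oligodendrocyte. The Oligodendrocyte call was also lost after median-of-ratios scaling (0.27).

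The sodium channel beta subunits act as modulators and adhesion proteins. Scn3b ranged from 3.85 to 4.24 CPM in NSC and from 11.57 to 17.58 CPM at day 4, and was higher by 1.71, 1.37 and 1.84 in Astrocyte, Neuron and Oligodendrocyte.

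The calcium channel alpha1 subunits form the pore. In Oligodendrocyte vs NSC 4 of the 7 tested were higher and 3 lower, in Astrocyte vs NSC 3 and 4, and in Neuron vs NSC 2 and 3. Cacna1h, a low-threshold T-type channel, was at 34.23, 36.2 and 34.84 CPM in NSC, 20.26, 18.23 and 15.45 in Astrocyte, 17.8, 13.58 and 16.44 in Neuron, and 11.93 and 13.41 in Oligodendrocyte libraries. NSC libraries were above all others, and the differences were -0.93, -1.10 and -1.40 (SE 0.11 to 0.12). Cacna1c, an L-type channel, was also lower in all 3 media (-0.87, -1.02 and -0.69), with 5.84 to 11.95 CPM at day 4 and 15.92 to 22.33 CPM in NSC. The other brain L-type gene, Cacna1d, is named here after its values had been seen. It was at 0.79, 1.19 and 0.93 CPM in NSC, 2.55, 2.13 and 2.16 in Astrocyte, 2.7, 1.54 and 2.91 in Neuron, and 10.59 and 11.52 in Oligodendrocyte libraries. The Oligodendrocyte libraries were above all others, 4.64-fold the Neuron mean (1.86 ± 0.16, SE, adjusted p = 3.35e-07). Dcp1a and Chdh overlap Cacna1d on the opposite strand with means of 26.5 and 2.09 CPM, and Dcp1b overlaps Cacna1c with 13.1 CPM.

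All 4 calcium channel beta subunits, which carry the pore to the membrane, were higher than NSC in Astrocyte and in Oligodendrocyte, and 2 of 4 in Neuron. Of all tested genes, 48%, 48.1% and 43.5% were called higher than NSC in Astrocyte, Oligodendrocyte and Neuron. Cacnb1 ranged from 2.95 to 3.91 CPM in NSC and from 6.94 to 10.8 CPM at day 4, and Cacnb3 from 15.58 to 17.46 and from 15.96 to 26.27 CPM. Cacnb3 was higher in Astrocyte (0.44) and Oligodendrocyte (0.64), and its Neuron libraries overlapped NSC (difference 0.07 ± 0.08). Under quantile normalization the sign of the Cacnb2 difference from NSC turned in Astrocyte (-0.02) and Oligodendrocyte (-0.13). Of the alpha2delta subunits, the targets of gabapentin, Cacna2d1 was lower than NSC in all 3 media (-0.84, -0.98 and -0.25, the last lost under 11 alternatives). Cacna2d2 was at 1.33, 1.85 and 1.26 CPM in NSC, 3.55, 4.41 and 3.63 in Astrocyte, 5.11, 3.02 and 4.52 in Neuron, and 9.61 and 10.05 in Oligodendrocyte libraries, with the last group above all others and 1.08 ± 0.16 above Neuron (adjusted p = 5.45e-05).

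The Cacng genes encode gamma subunits, of which several are TARPs that traffic AMPA-type glutamate receptors. Cacng7 was at 48.26, 50.25 and 55.48 CPM in NSC and between 106.89 and 118.9 CPM in all 8 day 4 libraries. It rose by 1.10, 1.11 and 1.17 and was not called between any 2 media. Cacng4 ranged from 45.47 to 47.82 CPM in NSC, 47.41 to 58.42 in Astrocyte and 32 to 37.5 in Neuron, and was at 67 and 68.59 in Oligodendrocyte libraries, 0.92 higher than in Neuron (SE 0.09, adjusted p = 1.39e-06). Cacng5 was at 15.64, 15.97 and 14.81 CPM in NSC, 22.83, 31.85 and 30.15 in Astrocyte, 3.57, 4.41 and 4.15 in Neuron, and 25.22 and 26.59 in Oligodendrocyte libraries. The Neuron libraries were below all others. Cacng5 was 6.99-fold higher in Astrocyte and 6.41-fold higher in Oligodendrocyte than in Neuron (2.53 ± 0.11 and 2.42 ± 0.12 on the log2 scale, SE).

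Of the 4 HCN genes 2 passed the filter. Hcn2, a cation channel that opens on hyperpolarization and is bound by cyclic AMP, was at 1.6, 1.8 and 1.57 CPM in NSC, 3.98, 4.61 and 4.68 in Astrocyte, 1.72, 1.45 and 1.19 in Neuron, and 62.79 and 82.27 in Oligodendrocyte libraries. The Oligodendrocyte libraries lay far above all others, and Neuron overlapped NSC. The Oligodendrocyte mean was 49.9-fold that in Neuron and 16.4-fold that in Astrocyte, with log2 differences of 4.90 ± 0.13 and 3.75 ± 0.13 (SE, adjusted p = 1.05e-11 and 1.9e-10). Hcn2 was also higher in Astrocyte than in NSC by 1.03 (adjusted p = 1.22e-06), and its difference between Neuron and NSC (-0.12, adjusted p = 0.334) was not called. Hcn3 ranged from 2.14 to 2.35 CPM in NSC, 2.48 to 3.11 in Astrocyte, 3.53 to 5.03 in Neuron and 3.93 to 4.31 in Oligodendrocyte libraries, and did not differ detectably between Oligodendrocyte and Neuron (-0.05 ± 0.12). Hcn4 stayed at or under 1.04 CPM.

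Per the labels, the Oligodendrocyte and Neuron media differed by the added T3, and both held 2% B-27. The comparison rests on 2 and 3 libraries. The 13 channel genes at least 2-fold higher in Oligodendrocyte than in Neuron came from 8 role groups. They included Kcna1, Hcn2, Kcnj4, Kcnj12, Cacng5, Kcnc4, Cacna1d, Kcnk1, Kcnj10, Cacna2d2 and Cacna1a. The 7 lower ones were Kcnf1, Kcnt1, Kcnab1, Kcnk2, Kcnd2, Kcnc2 and Kcna6. In 60 of the 73 channel genes the 2 Oligodendrocyte libraries did not overlap the 3 Neuron libraries (82.2%), and this was so for 75.7% of all tested genes. The receptor genes were present in both media. Thra, the T3 receptor alpha, had means of 403 CPM in Neuron and 377 CPM in Oligodendrocyte, and Thrb, the receptor beta, 16.9 and 24.8 CPM.

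**Figure D5:**
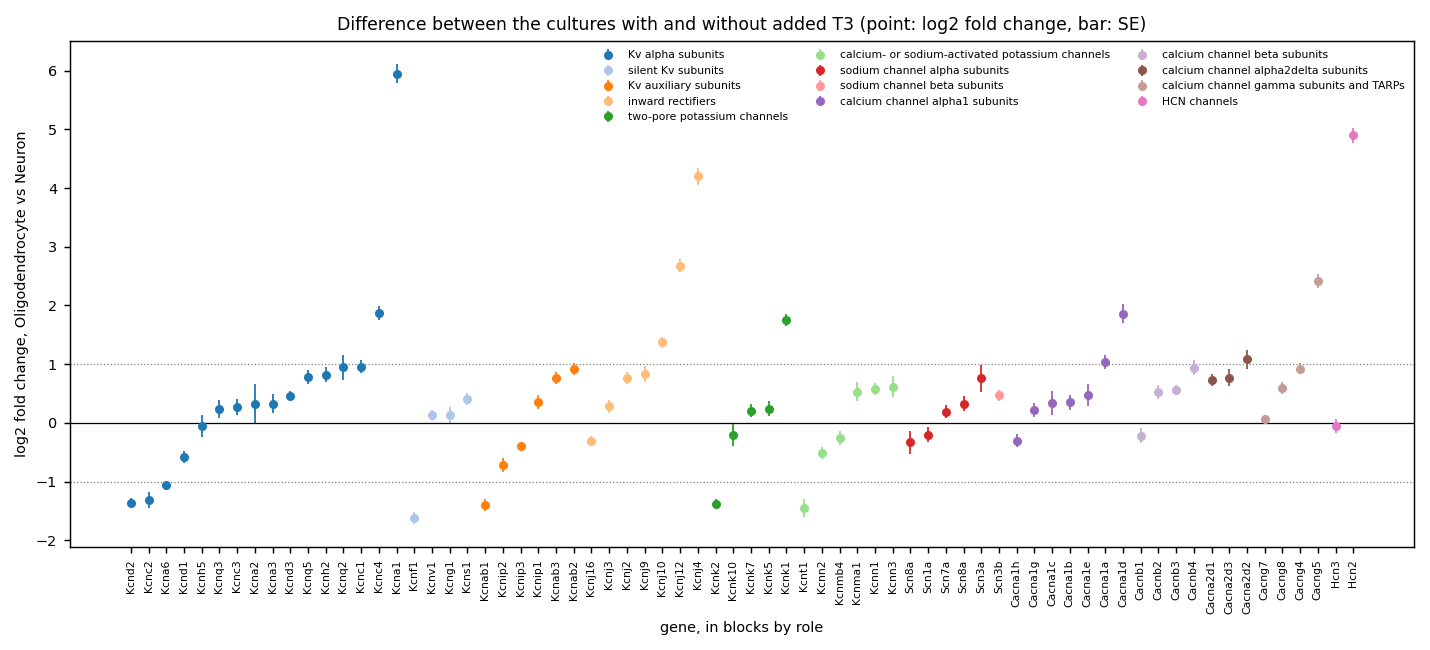
Log2 fold change on the log2(CPM + 1) scale between Oligodendrocyte (n = 2) and Neuron (n = 3) for 70 of the 73 tested channel genes, in blocks by role, with SE bars and dotted lines at 1 and -1. Kcna1 (5.95), Hcn2 (4.90) and Kcnj4 (4.20) stand above all other channel genes plotted.

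Some channel genes lie beside each other. In the table's coordinates 26 pairs lay within 200 kb, and both genes were tested in 6 of them. Apart from Kcna1 and Kcna6, the pair Cacng7 and Cacng8, 26.8 kb apart on the same strand, also parted, since Cacng8 was lower than NSC in all 3 media (-0.85, -1.64 and -1.04) where Cacng7 was higher. Kcnj16 and Kcnj2, 38.2 kb apart, were both lower than NSC in Neuron and Oligodendrocyte. Cacng4 and Cacng5, 80 kb apart, were both lower in Neuron than in every other group. Kcnj9, a G-protein-gated rectifier 11.9 kb from Kcnj10 on the other strand, was higher than NSC in all 3 media (1.38, 0.76 and 1.59), as Kcnj10 was, though its Neuron difference was 0.27 and no longer called under quantile normalization. Kcna2 and Kcna3, 63.4 kb apart, were both lower than NSC in Astrocyte and Neuron. Without NSC replicate 2 the Neuron difference of Kcna3 went from -0.42 to -0.27 and was no longer called.

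Genes that work with these channels were listed by function. Of 20 tested partners of nodes and axon initial segments, 16 were higher and 3 lower in Astrocyte vs NSC, 16 and 2 in Neuron vs NSC, and 17 and 2 in Oligodendrocyte vs NSC. In Oligodendrocyte vs Neuron 11 were higher and 2 lower, with a median of 0.35. Among all tested genes, 48%, 43.5% and 48.1% were higher and 35.6%, 39.6% and 32.2% lower than NSC in Astrocyte, Neuron and Oligodendrocyte, and 43.9% were higher and 23.6% lower in Oligodendrocyte vs Neuron, which is the background for all 4 partner lists. Cntnap2 (Caspr2), which anchors Kcna1 and Kcna2 channels beside nodes, averaged 0.0633 CPM in NSC, 9.64 in Astrocyte, 15.5 in Neuron and 25.2 in Oligodendrocyte. Nfasc, the adhesion protein neurofascin, averaged 4.52, 74, 376 and 535 CPM in the same order, and Cntn1, its partner contactin, 56.6, 221, 249 and 534 CPM. Fgf12, a sodium channel regulator, was highest in Neuron, with 5.15, 13, 29.2 and 13.5 CPM.

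Of 15 tested genes for glial potassium and water handling, 14 were higher than NSC in Astrocyte and Oligodendrocyte and 15 in Neuron, and none was lower. In Oligodendrocyte vs Neuron 4 were higher and 7 lower. Aqp4, the water channel found with Kcnj10 in astrocyte endfeet, averaged 15.2 CPM in NSC, 1479 in Astrocyte, 763 in Neuron and 85.6 in Oligodendrocyte, and so did not keep the order of Kcnj10. The gap junction gene Gja1 averaged 60.4, 2126, 1061 and 1103 CPM, and Gjb6 0.0133, 3.17, 8.3 and 0.61 CPM. Of 13 other voltage-gated or leak channel genes, 10, 8 and 9 were higher than NSC in the 3 media and 1, 1 and 2 lower, and in Oligodendrocyte vs Neuron 6 were higher and 4 lower. Nalcn, the sodium leak channel, averaged 4.57, 22.6, 38.8 and 56.3 CPM, and Unc80, which holds it in a complex, 1.29, 3.19, 4.89 and 10.3 CPM. The proton channel gene Hvcn1 averaged 1.48, 2.43, 5.38 and 0.98 CPM, the lysosomal channel gene Tpcn1 31.4, 130, 95 and 78.4 CPM, and Scn2a1 (Nav1.2) 1.65, 5.74, 6.43 and 4.46 CPM. Of 8 channel gene regulators, 3 were higher and 0 lower in Oligodendrocyte vs Neuron, with a median of 0.06, and Usp36 averaged 32, 19.3, 18.9 and 28.6 CPM.

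The 65 untested rows held 14 Kv alpha, 6 silent Kv, 8 inward rectifier and 9 tandem-pore channel rows, among others. Their highest library ranged from 0 to 1.06 CPM. Kcne3, Kcnk16 and Kcnv2 were listed at 0 in all 11 libraries, where 3 reads would be worth 0.0453 to 0.0609 CPM. These limits cover counting error only. Kcnh1, a Kv alpha gene named here after its values had been seen, was at 0.79 and 1.06 CPM in Oligodendrocyte and at most 0.03 CPM in every other library, and Kcnh6, of the same family, was highest in Neuron (0.73 to 1.03 CPM). Among the lowest of the untested rows, Scn4a, Scn10a and Cacna1f reached at most 0.14, 0.03 and 0.02 CPM.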

How the data were processed

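The authors deposited 1 table of CPM values (reads per gene over the library total, 2 decimals) for 37991 genes of mouse build mm9 and 11 libraries, with columns of group means and SDs that were left out. Per the labels' protocols, the libraries were TruSeq Stranded mRNA, sequenced on an Illumina HiSeq instrument. The submitters' processing notes name TopHat2 2.0.8, HTSeq 0.6.1, edgeR 3.2.4 and HOMER with no role. Whether counting used strand is not given in the sources used here. The listed genes summed to 75% to 80.2% of the CPM scale. In a library 99.85% to 100% of values under 3 CPM lay on steps of 1 read after rounding, but 24.2% to 61.4% lay within 0.1 of a whole read, so no count test was run.

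The 13342 genes that reached 1 CPM in 2 or more libraries were put on log2(CPM + 1) and fitted with limma 3.58.1 in R 4.3.3, with 1 mean per group over all 11 libraries and an intensity trend in the variance prior (residual degrees of freedom 7, prior 5.96). The 6 pairs of groups were compared with two-sided moderated tests, Benjamini-Hochberg adjusted over all tested genes within each comparison. The script was tested on simulated data. Fold changes in the text that are not on the log2 scale are ratios of mean CPM.

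The channel genes and all lists were chosen with earlier results of these data known. Genes given with values were the markers Kcna1, Kcns1 and Hcn2, the 4 largest rises and 4 largest falls in each comparison (called at 2-fold or more, group mean of 5 CPM or more, no overlap), the 2 highest members of each role by mean CPM, those next to the filter, and those within 200 kb of Kcna1. All other channel genes in the text, such as Kcna2, Kcnj2, Kcnj9, Kcnk5, Cacna1d and Cacng8, were named after their values had been seen or belong to a set. Some channel genes enter the counts and medians but are not reported here by name. Alternatives were other pseudocounts (0.1, 0.5 and 5), no filter or a filter at 5 CPM, median-of-ratios scaling, quantile normalization, fits on 2 groups, no trend, a replicate block and leaving out each library.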

Additional observations from a re-analysis of the deposited data

Results flagged for a closer look

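In all, 8 of the channel genes reported here were called in opposite directions against NSC in different media. The difference between those media was also called by limma in every case. Choosing genes called on opposite sides of NSC makes such a call nearly certain, so it is no separate support. The comparisons with NSC share the NSC libraries. The values are log2 differences between the 2 media. For Astrocyte vs Neuron they were 1.62 for Kcna1, 2.53 for Cacng5, 1.20 for Kcnj4, -1.57 for Kcnf1 and -1.28 for Kcnd2. For Oligodendrocyte vs Neuron they were 5.95 for Kcna1, 4.20 for Kcnj4, 2.42 for Cacng5, 0.92 for Cacng4, 0.92 for Kcnab2, -1.62 for Kcnf1 and -1.36 for Kcnd2. For Oligodendrocyte vs Astrocyte they were 0.82 for Kcnab2 and 0.70 for Cacna1b. Kcnf1 and Kcnd2 were the members that rose in Neuron and fell in both other media. The Neuron call of Kcnj4, the Oligodendrocyte call of Kcnab2, and the Astrocyte and Oligodendrocyte calls of Cacna1b against NSC were each lost under at least 3 alternatives. Under quantile normalization the Astrocyte calls of Kcna1 and Kcnj4 against NSC were lost as well, with differences of -0.09 and 0.19.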

How the results depend on the processing

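The number of channel genes called stayed within 1.5 times of its main value under every alternative run, in all 6 comparisons. The number at 2-fold or more depended on the pseudocount. With a pseudocount of 5 it was 16 for Astrocyte over NSC, 15 for Neuron over NSC, 23 for Oligodendrocyte over NSC, 6 for Astrocyte over Neuron, 12 for Oligodendrocyte over Neuron and 6 for Oligodendrocyte over Astrocyte. With 0.1 it was 21 for Astrocyte over Neuron and 17 for Oligodendrocyte over Astrocyte. A larger pseudocount shrinks the log2 difference of low genes by construction.

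Leaving out 1 library at a time gave 64 to 68 calls for Astrocyte over NSC, 62 to 67 for Neuron over NSC, 63 to 71 for Oligodendrocyte over NSC, 43 to 49 for Astrocyte over Neuron, 46 to 57 for Oligodendrocyte over Neuron and 33 to 51 for Oligodendrocyte over Astrocyte. At 2-fold or more the ranges were 35 to 38, 34 to 38, 38 to 40, 12 to 14, 18 to 23 and 9 to 11. Without an Oligodendrocyte library, the remaining one is assumed to vary like the other groups.

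Among differences of genes reported here that were called either as reported or under the alternative, a change of sign occurred only under quantile normalization, and the cause was not tested. Differences called under neither also changed sign under other settings. The changes of sign under quantile normalization for Astrocyte over NSC were Hcn3 (-0.48), Kcnj12 (-0.52), Kcna1 (-0.09), Scn1a (-0.22), Kcnk10 (-0.19), Kcnq3 (-0.35) and Cacnb2 (-0.02). For Neuron over NSC they were Kcnj12 (-0.17) and Cacna2d3 (-0.00079). For Oligodendrocyte over NSC they were Scn1a (-0.28), Cacna1b (-0.04), Kcnk7 (-0.02), Kcnab1 (-0.02) and Cacnb2 (-0.13). After quantile normalization Hcn3, Kcnj12 and Kcnq3 were called lower in Astrocyte, and Scn1a was called lower in Oligodendrocyte. The other changes of sign were not called after it.

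With the replicate number as a block, calls were 67, 65, 69, 46, 51 and 43 in the order above, and 36, 38, 39, 12, 21 and 10 at 2-fold or more. The deviations of same-numbered libraries correlated at -0.505 to 0.415, and those of differently numbered libraries at -0.536 to 0.541. With 2 Oligodendrocyte libraries, their deviations mirror each other by construction. These correlations therefore cannot decide whether same-numbered libraries were paired. With 2 Oligodendrocyte libraries and values near 1 CPM, small differences of low genes are the least firm.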
